A study of Homo sapiens with 9 samples.

Results

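The comparison described here set 3 cultures of neural crest-like cells grown with FGF2 and SB431542 (group FSB) against 3 cultures grown with FGF2 alone (group F), with attention to families of genes and what their products do. These cultures were chosen by their sample titles and make up 6 of the 9 RNA sequencing libraries of the series. All cultures share 1 source, the established human embryonic stem cell line H9. Its clumps spent 6 days in defined medium containing SB431542 at 10 µM to start differentiation. The growth protocol describes sorting for high CD271 without CD73, while the cell type label gives both markers as positive. The sorted cells were expanded on fibronectin under 5% oxygen, with 5 to 10 ng/ml FGF2 in F and with the same FGF2 plus 3 to 5 µM SB431542 in FSB, and harvested at passage 6 to 7. The series calls the cultures of a group biological replicates. Both groups had seen the inhibitor during differentiation, and they differed in whether it stayed in the medium during expansion. The other 3 libraries (F_FSB) came from cultures moved from FSB to FGF2 alone after 4 passages. They entered only the filter, the estimate of the spread and the alternative scalings.

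SB431542 is a small molecule that blocks the kinase of the type I receptors through which TGF-β, Activin and Nodal signal to SMAD proteins. In mesenchymal cells that pathway is known for inducing matrix genes. FGF2 is a mitogen that acts through receptor tyrosine kinases. Neural crest cells are migratory embryonic cells that give rise to the skeleton of the face, peripheral neurons, glia and pigment cells.

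Expression is given as FPKM, fragments normalised to transcript length and to all mapped fragments of the library. Dividing by length allows levels of different genes to be set side by side. Changes are FSB minus F after log2(FPKM + 1), and genes of low level appear to change less on this scale than they do. A gene was called when limma gave a Benjamini-Hochberg (BH) adjusted p under 0.05 over all 13216 genes tested. By that rule 5536 genes (41.9%) were called, 3763 higher (28.5%) and 1773 lower (13.4%) in FSB, and the F and FSB libraries did not overlap for 7654 genes (57.9%). Without FSB replicate 1 these counts were 2618 and 1172, and without FSB replicate 2 they were 2415 and 1214. For every gene given below with its values as having risen or fallen, the F and FSB libraries did not overlap. Their adjusted p by limma with BH ran from 1.11e-05 (DUSP9) to 0.0379 (CDC25B), and values after ± are SDs over 3 cultures. DUSP9 reached 1 FPKM only in the FSB libraries, so it entered the test through the group in which it is high. FSB replicate 3 lay apart from FSB replicates 1 and 2 for several families and genes. The median change of all genes was 0.14. Scaling each library by median ratios moved that median to 0.00 and gave 2424 genes higher (18.3%) and 2461 lower (18.6%). Scaling to equal quantiles or to the same sum left more genes higher than lower. Families are therefore described by their counts in the deposited scaling and then by their counts after scaling by median ratios. For a few families the median change less the median of all genes is given too. The FSB libraries correlated with each other at 0.964 to 0.983 across genes and the F libraries at 0.943 to 0.959, and genes are not independent replicates. FPKM summed to between 366393 and 395596 per F or FSB library, and to between 361026 and 506146 per F_FSB library. Fragment counts were not analysed here, so the depth behind each value is unknown. RNA was taken from whole cultures, in which fewer cells of a type and less RNA per cell cannot be told apart.

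Of 93 families of genes examined, 87 had at least 10 members tested. In 17 of these the share of members higher in FSB was at least 1.5 times that of all genes, and in 41 the share lower was. None met both conditions and 29 met neither. These counts describe the deposited scaling. Some genes, such as PSMB8, stand in several families, so the families are not separate sets of genes. In the text a dagger (†) marks genes that were chosen after their values were seen, while the others follow a rule of largest changes and highest level in each family or stand on the marker lists. A gene is said to pass the filter on low values only through a group when fewer than 3 of the other libraries reached 1 FPKM. On leaving out 1 library of that group such a gene could be tested only if a library of another group also reached 1 FPKM. For that reason NUP210, EMILIN2, LAMA1, MASP1, PDGFB, BMP7, DUSP9, NR6A1 and CDH5 could not be tested without any 1 FSB library. The 17 were DNA replication, mitosis, cohesin and condensin, Fanconi anaemia and recombination, SWI/SNF and CHD remodelling, splicing, the nuclear pore, aminoacyl-tRNA synthetases, mitochondrial ribosomal proteins, the proteasome, the tricarboxylic acid cycle, one-carbon metabolism, purine and pyrimidine synthesis, fatty acid synthesis, dual-specificity phosphatases, tubulins and kinesins. Histones, Polycomb, nucleolar genes, translation factors and cytosolic ribosomal proteins were among the 29. The 41 included small leucine-rich proteoglycans, elastic fibres, lysosomal, interferon-stimulated and complement genes, and families of cell guidance.

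**Figure D1:**
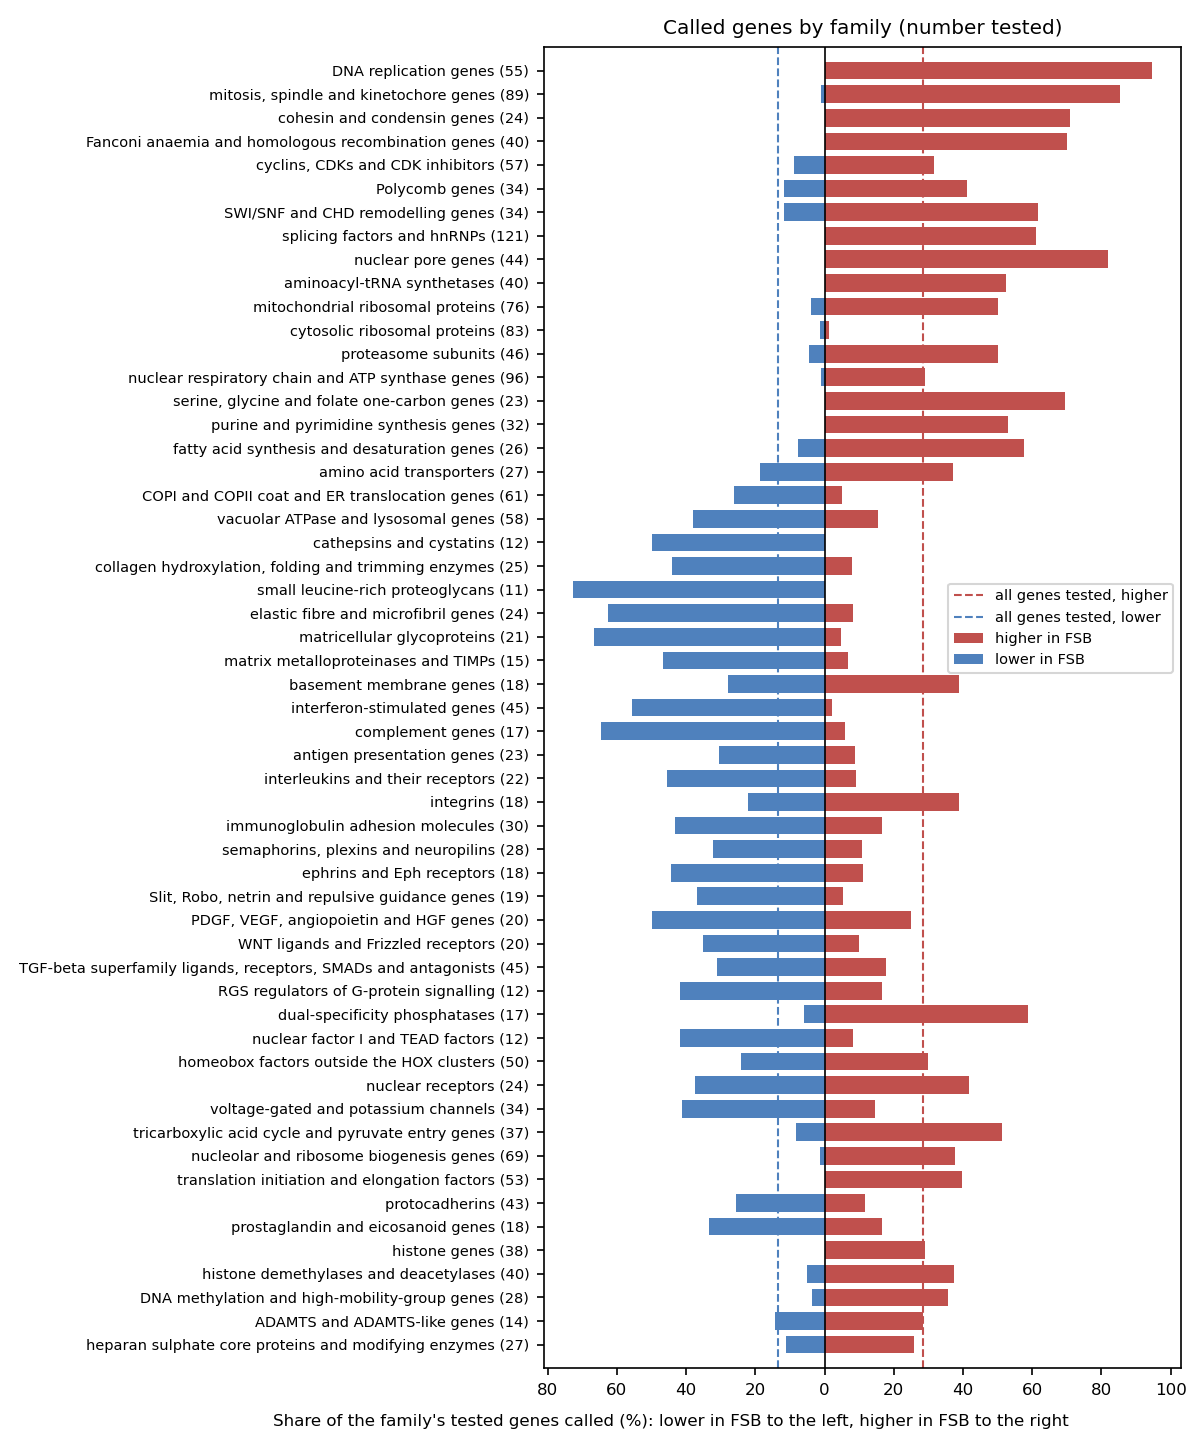
Bars give, for each family described, the share of its tested genes (number in brackets) called higher in FSB (to the right, in percent) or lower in FSB (to the left, in percent), and dashed lines give the same shares of all genes tested, 28.5% and 13.4%. DNA replication, mitosis and nuclear pore genes reach furthest to the right, and small leucine-rich proteoglycans, matricellular glycoproteins and complement genes furthest to the left.

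Genes of cell division were higher in FSB almost throughout. Of 55 DNA replication genes, all of them tested, 52 rose, 0 fell and 3 did not pass the test (limma with BH adjustment). After scaling by median ratios 44 were higher and 0 lower, and the family's median lay 0.79 above that of all genes. MCM7 (chromosome 7, 99690404 to 99699427 on GRCh37), a subunit of the helicase that opens DNA at the replication fork, had 31.5, 28.2 and 46.8 FPKM in F and 110.2, 107 and 92.9 FPKM in FSB. Every FSB library lay well above the highest F library. Its log2 change was 1.55 (SE 0.20, limma, BH-adjusted p = 0.000924). FEN1, the nuclease that trims Okazaki fragments, went from 11.4 ± 3.71 to 35.5 ± 3.25 FPKM (SD, n = 3) and had the largest change of the family, 1.6. TYMS, which makes thymidylate, went from 57.4 ± 11.2 to 129 ± 11.7 FPKM.

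The larger set of mitotic genes gave 76 higher and 1 lower of 89 (60 and 1 after scaling), with a median 0.69 above all genes. AURKB, a kinase that corrects chromosome attachment to the spindle, had 19.9, 19.4 and 19.1 FPKM in F and 58.7, 60.4 and 35.3 FPKM in FSB. The F libraries were nearly equal and FSB replicate 3 was the lowest of the FSB libraries. UBE2C, which feeds the anaphase-promoting complex, followed the same order, with 54.4, 45.4 and 42 FPKM in F and 104, 119 and 73 FPKM in FSB. FSB replicate 3 was less apart for S-phase genes than for mitotic genes. Summed over the family, replication genes lay at 1.03, 1.08 and 0.92 in the FSB libraries on the log2 scale relative to the F mean, and mitotic genes at 1.00, 1.06 and 0.48. The only mitotic gene called lower was CDC25B, a phosphatase that starts mitosis, which went from 30.8 ± 8.44 to 17.8 ± 4.88 FPKM (change -0.76 in log2, adjusted p = 0.0379, limma with BH). That call was lost without F replicate 1 or 2 or any 1 FSB library (limma, BH-adjusted p up to 0.107). Its paralog CDC25A, which acts at the start of S phase, moved the other way, with 4.24, 4.36 and 7.03 FPKM in F and 17.7, 17.9 and 14.9 FPKM in FSB.

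**Figure D2:**
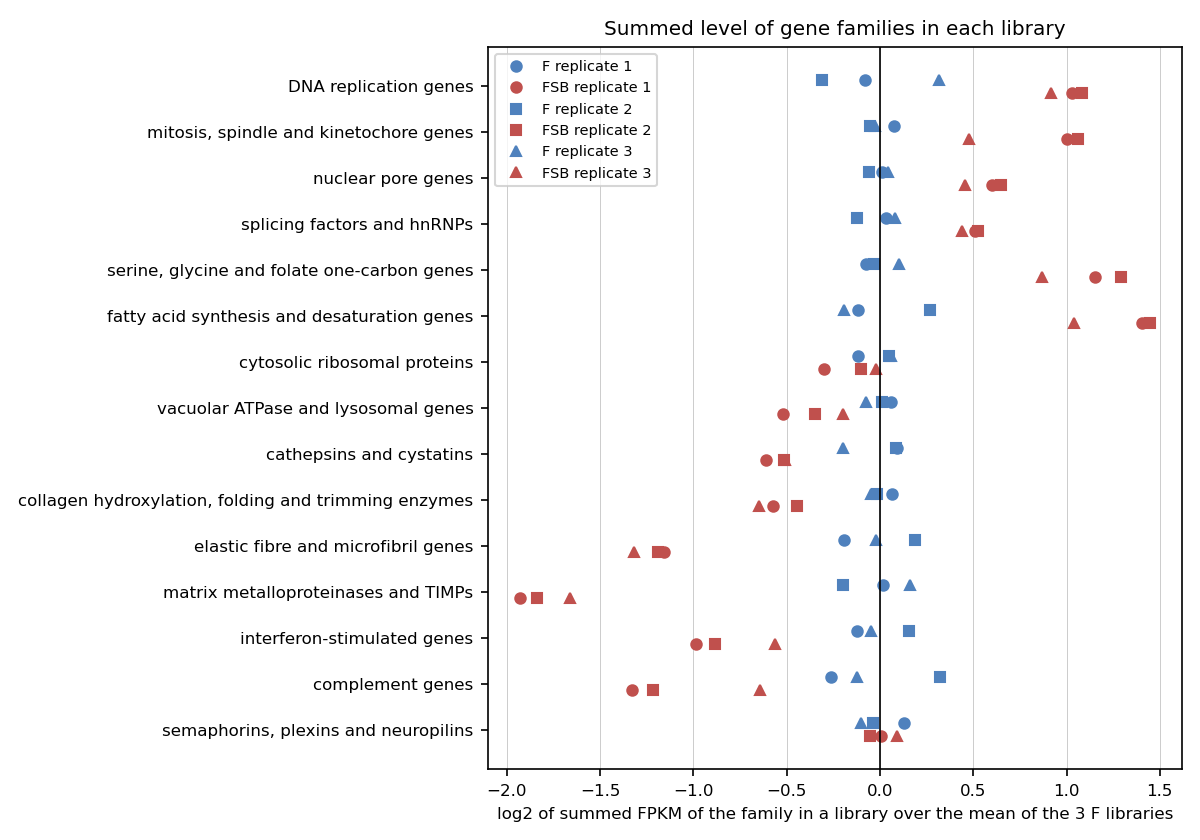
Points give the summed FPKM of 15 families in each F (blue) and FSB (red) library as log2 relative to the mean of the 3 F libraries. Replication genes lie between 0.92 and 1.08 in FSB and mitotic genes between 0.48 and 1.06, matrix metalloproteinases lie between -1.93 and -1.66, and sums of cytosolic ribosomal proteins (-0.30 to -0.02 in FSB) and of semaphorins with their receptors (-0.06 to 0.09) stay near the F libraries.

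Genes that hold and repair chromosomes were higher too. Of 24 cohesin and condensin genes, the rings that hold sister chromatids and compact them, 17 rose and 0 fell (12 and 0 after scaling). That count was 11, 10 and 11 without F replicate 2, FSB replicate 1 and FSB replicate 2. The condensin subunits NCAPH and NCAPG went from 6.52 ± 0.653 to 15.6 ± 2.89 FPKM and from 10.4 ± 0.828 to 24.8 ± 5.62 FPKM. Of 40 genes of the Fanconi anaemia pathway and of homologous recombination, which mend breaks and crosslinks, 28 rose and 0 fell (22 and 0 after scaling), and 1 of those that rose passed the filter only through the FSB libraries. The helicase BLM and its partner RMI2 went from 3.16 ± 1.04 to 8.92 ± 0.853 FPKM and from 9.61 ± 1.6 to 28.2 ± 0.952 FPKM.

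Regulators of the cycle moved in both directions. Of 57 cyclins, cyclin-dependent kinases, their inhibitors and related regulators such as RBL2, 18 rose and 5 fell (14 and 7 after scaling). The share higher, 31.6%, is close to the 28.5% of all genes. The members that fell were CCND3†, CDKN2A†, CDKN2C, CDKN2D† and RBL2†, and 3 of the family fell without F replicate 3, FSB replicate 1 or FSB replicate 3. CCND2 (chromosome 12, 4382902 to 4414522), a D-type cyclin that carries growth factor signals to the cycle, had 5.62, 1.79 and 6.06 FPKM in F and 66.3, 58.5 and 67.5 FPKM in FSB, far above F in every FSB library. E2F5, a partner of the pocket proteins, went from 6.4 ± 1.29 to 19.8 ± 1.06 FPKM. CDKN2C (chromosome 1, 51434367 to 51440309), an inhibitor of the kinases that D-type cyclins activate, had 8.89, 10.9 and 10.6 FPKM in F and 2.24, 2.28 and 2.4 FPKM in FSB. It fell by 1.74 (SE 0.11, limma, BH-adjusted p = 5.82e-05), and the values within each group were close together.

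The promoters of these families differed in the short motifs they held. Promoter windows of 300 bases were taken from RefSeq on GRCh38.p14, which is not the build of the expression tables, with the start listed first for each gene. They were found for 49 of 55 replication genes, 75 of 89 mitotic genes and 36 of 45 interferon-stimulated genes. The letters TTTGGCGC, TTTCCCGC, TTTCGCGC or TTTGCCGC, which E2F factors are known to bind, stood on either strand in 40.8% of replication promoters, 9.33% of mitotic promoters and 3.33% of all promoters in the table. TTTGAA, the cell cycle homology region of late cell cycle genes, was in 54.7% of mitotic promoters, 4.08% of replication promoters and 15.4% of all. CCAAT, the NF-Y box, was in 68% of mitotic, 53.1% of replication and 35.7% of all promoters. No word contains another. The promoters in the table include those of genes not tested here, while the families hold tested genes only, so the sets are unlike. A match describes letters and not binding. The 250 bases before the start of MCM7 and CDC25A, the replication helicase gene and the S-phase phosphatase gene described above, are shown 5′ to 3′ on the gene's strand, with E2F words and NF-Y boxes of either strand in capitals.
MCM7, minus strand, chr7:100101398-100101647: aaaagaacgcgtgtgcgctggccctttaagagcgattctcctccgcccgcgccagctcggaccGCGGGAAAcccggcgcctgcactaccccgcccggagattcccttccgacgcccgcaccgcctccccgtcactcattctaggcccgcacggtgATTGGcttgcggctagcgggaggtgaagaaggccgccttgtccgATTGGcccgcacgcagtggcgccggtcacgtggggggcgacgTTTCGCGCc
CDC25A, minus strand, chr3:48188418-48188667: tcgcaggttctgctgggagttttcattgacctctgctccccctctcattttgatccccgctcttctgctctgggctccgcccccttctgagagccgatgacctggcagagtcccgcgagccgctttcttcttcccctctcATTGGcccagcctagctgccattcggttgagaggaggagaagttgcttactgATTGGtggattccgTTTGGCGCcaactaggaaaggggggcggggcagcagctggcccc
MCM7 held 4 such words and CDC25A held 3 in this window.

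**Figure D3:**
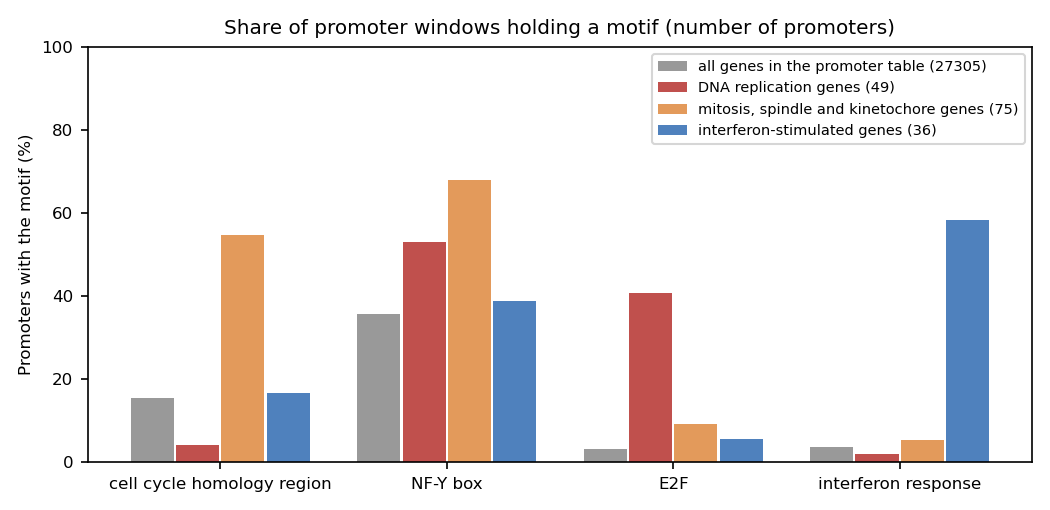
Bars give the share of 300-base promoter windows (percent, number of promoters in brackets) that hold each of 4 motifs on either strand, for 3 families and for all genes in the promoter table. The cell cycle homology region stands out in mitotic genes at 54.7%, the E2F words in replication genes at 40.8% and the interferon response motif in interferon-stimulated genes at 58.3%.

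Among chromatin regulators the SWI/SNF and CHD remodelling genes were mostly higher in the deposited scaling, and the other lists stood nearer to all genes. Of 34 SWI/SNF and CHD remodelling genes, whose products slide nucleosomes with energy from ATP, 21 rose and 4 fell, CHD3, CHD9†, SMARCA2 and SMARCD3† (13 and 4 after scaling). SMARCA2 (chromosome 9, 2015342 to 2193624) and SMARCA4 encode the alternative motors of SWI/SNF. SMARCA2 had 22.7, 23.3 and 22.7 FPKM in F and 2.57, 2.57 and 6.59 FPKM in FSB, and FSB replicate 3 was the highest of the low FSB libraries. It fell by 2.38 (SE 0.26, limma, BH-adjusted p = 0.00048). SMARCA4† rose from 37.7 ± 6.01 to 69.1 ± 5.32 FPKM (change 0.86 in log2, adjusted p = 0.00266, limma with BH). CHD7, a remodeller known for its role in neural crest development, had 1.37, 0.715 and 2.16 FPKM in F and 19.9, 16.4 and 19.96 FPKM in FSB, while CHD3, a motor of the NuRD complex, fell by 1.25, from 51.8 ± 3.77 to 21.3 ± 2.54 FPKM. Of 34 Polycomb genes 14 rose and 4 fell, CBX6, EZH1†, PHC3† and RYBP† (10 and 6 after scaling). Without F replicate 2, FSB replicate 1 or FSB replicate 2, 9, 8 and 9 were higher, and 1 was lower without any of these, F replicate 3 or F_FSB replicate 1. SCML2, a Polycomb protein, rose by 1.95 and EZH2†, the methyltransferase of the complex, went from 14.3 ± 2.67 to 31.5 ± 2.9 FPKM. CBX6, a reader of the Polycomb mark, fell by 2.04, from 17.5 ± 3.77 to 3.48 ± 0.665 FPKM. Of 38 histone genes 11 rose and 0 fell (8 and 2 after scaling, and 6 higher without FSB replicate 2). Of 40 histone demethylases and deacetylases 15 rose and 2 fell, JMJD4† and SIRT2† (10 and 6 after scaling, and 1 lower on dropping 1 of F replicates 2 and 3, FSB replicates 1 and 2 and F_FSB replicates 1 and 3). Of 28 DNA methylation and high-mobility-group genes 10 rose and 1 fell, HMGA2† (8 and 3 after scaling, 6 higher without FSB replicate 2 and 2 lower without F replicate 3). These shares higher were 28.9%, 37.5% and 35.7%, against 28.5% of all genes. Of those that rose, 1 histone gene and 2 demethylases or deacetylases passed the filter only through the FSB libraries.

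Genes that carry and process RNA were mostly higher, and genes of the ribosome itself mostly did not pass the test. Of 44 nuclear pore and transport genes 36 rose and 0 fell (29 and 1 after scaling), a share of 81.8%. The import receptors KPNA2 and KPNB1 went from 66.7 ± 12.9 to 160.0 ± 28.2 FPKM and from 93.9 ± 7.3 to 171 ± 10.4 FPKM. NUP210, a membrane nucleoporin known to be switched on in some lineages, was at 0.815, 0.13 and 0.329 FPKM in F and 5.92, 4.97 and 5.27 FPKM in FSB, and it passed the filter only through the FSB libraries. Of 121 splicing factors and hnRNPs 74 rose and 0 fell (41 and 2 after scaling), and 49 rose without F replicate 2. HNRNPAB, which binds nascent RNA, went from 72.6 ± 18.3 to 144 ± 8.99 FPKM, and HNRNPA2B1, the most abundant member, from 256 ± 36.6 to 403 ± 48.3 FPKM. RBM38, an RNA-binding protein of the p53 pathway, had 7.49, 4.75 and 5.94 FPKM in F and 15.3, 13.8 and 20.7 FPKM in FSB.

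Translation moved in parts. Of 40 aminoacyl-tRNA synthetases, which load amino acids onto tRNAs, 21 rose and 0 fell (13 and 1 after scaling). Without FSB replicate 2, 12 rose. TARS and WARS, the enzymes for threonine and tryptophan, went from 36 ± 3.02 to 79.3 ± 14.7 FPKM and from 23.9 ± 2.41 to 50.4 ± 9.36 FPKM. Of 76 mitochondrial ribosomal proteins 38 rose and 3 fell (22 and 5 after scaling, and 25 higher without FSB replicate 2), with MRPL23 from 21.4 ± 5.65 to 44.2 ± 4.34 FPKM. Of 69 nucleolar and ribosome assembly genes 26 rose and 1 fell (14 and 2 after scaling), and 15, 16 and 15 rose without F replicate 2, FSB replicate 1 and FSB replicate 2. NCL, nucleolin, went from 259 ± 27.6 to 396 ± 39.4 FPKM. Of 53 translation factors 21 rose and 0 fell (9 and 1 after scaling), and 12, 12 and 8 rose without F replicate 1, FSB replicate 1 and FSB replicate 2. Their share higher was 39.6% in the deposited scaling, and after scaling by median ratios it was below the 18.3% of all genes in that scaling. EIF4EBP2, which restrains cap-dependent translation, went from 28.3 ± 0.982 to 55.9 ± 2.67 FPKM. Cytosolic ribosomal proteins, in contrast, gave 1 higher (RPL39L†) and 1 lower (RPL31†) of 83, and 0 higher and 10 lower after scaling. Their median lay -0.26 relative to all genes, and RPL11 had 1288 ± 119 in F against 1082 ± 98.1 FPKM in FSB (limma, BH-adjusted p = 0.222). Both single calls were lost without F replicate 2. Reads of ribosomal protein genes can be shared with their many pseudogenes, so these values are uncertain. Of 46 proteasome subunits 23 rose and 2 fell, PSMB8 and PSMB9† (6 and 2 after scaling), and the higher count was 10, 13 and 9 without F replicate 2, FSB replicate 1 and FSB replicate 2. After scaling by median ratios the share of subunits higher was below the 18.3% of all genes in that scaling. PSMA4 went from 110.0 ± 10.4 to 166 ± 13.6 FPKM. Of 96 nuclear-encoded respiratory chain and ATP synthase genes 28 rose and 1 fell (29.2% higher), with 9 higher and 6 lower after scaling. The share of these genes higher after scaling was also below the 18.3% of all genes. That family's higher count was 18, 12 and 18 without F replicate 3, FSB replicate 2 and FSB replicate 3.

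Pathways that supply building blocks for growth held more genes that rose than fell, as did all genes tested (28.5% higher and 13.4% lower). Of 23 genes of serine, glycine and folate metabolism, which provide one-carbon units, 16 rose and 0 fell (14 and 0 after scaling). CBS (chromosome 21, 44473301 to 44496472), which joins serine and homocysteine on the way to cysteine, had 3.6, 3.4 and 2.35 FPKM in F and 60.1, 61.4 and 37.5 FPKM in FSB. It rose by 3.69 (SE 0.26, limma, BH-adjusted p = 8.65e-05), and FSB replicate 3 was the lowest of the high libraries. The serine synthesis enzymes PSAT1 and PHGDH† went from 8.39 ± 0.397 to 47.8 ± 17.5 FPKM and from 30.3 ± 6.91 to 141 ± 39.6 FPKM. Of 32 purine and pyrimidine synthesis genes 17 rose and 0 fell (16 and 1 after scaling). PAICS, an enzyme of purine synthesis, went from 36.6 ± 6.67 to 90.9 ± 12.5 FPKM, and UPP1, a phosphorylase that salvages uridine, from 2.69 ± 0.902 to 26.2 ± 2.38 FPKM.

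Of 26 fatty acid synthesis and desaturation genes 15 rose and 2 fell (13 and 2 after scaling), and 1 of those that rose passed the filter only through the FSB libraries. The lower calls, FADS3† and SCD5†, were both lost on leaving out F replicate 1, F replicate 2, FSB replicate 1 or FSB replicate 2. SCD (chromosome 10, 102106772 to 102124588), the stearoyl-CoA desaturase, had 131, 202 and 99.7 FPKM in F and 813, 823 and 629.6 FPKM in FSB, and FASN†, fatty acid synthase, went from 50.4 ± 10.5 to 131 ± 36.6 FPKM. All 3 FSB libraries exceeded every F library for both. The family's sum, on the log2 scale relative to the F mean, was 1.40, 1.45 and 1.04 in FSB replicates 1, 2 and 3, lowest in the third. Of 27 amino acid transporters 10 rose and 5 fell (10 and 5 after scaling), and 2 of those that fell passed the filter only through the F libraries. Their shares, 37% higher and 18.5% lower, were each under 1.5 times those of all genes. SLC7A5 (chromosome 16, 87863629 to 87903100), the importer of large neutral amino acids, had 3.86, 2.12 and 2.73 FPKM in F and 35.8, 40.6 and 21.1 FPKM in FSB. SLC3A2†, its heavy chain partner, went from 18.3 ± 2.43 to 39.4 ± 5.3 FPKM, and SLC7A11, the cystine importer, from 0.874 ± 0.622 to 12.7 ± 2.61 FPKM. SLC1A3, a glutamate transporter, went the other way, with 2.53, 5.16 and 8.84 FPKM in F and 0.0781, 0.133 and 0.0539 FPKM in FSB.

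Genes that carry and modify secreted protein, and lysosomal genes, were lower more often than higher. Of 61 genes for coats of transport vesicles and for translocation into the endoplasmic reticulum, 3 rose and 16 fell (1 and 26 after scaling). The higher count was 1 without F replicate 3, FSB replicate 1 or FSB replicate 2. COPZ2, a COPI coat subunit, had 41.4, 45 and 36.6 FPKM in F and 7.42, 8.07 and 9.88 FPKM in FSB, and CREB3L1, a transcription factor that drives secretory and collagen genes, went from 34.2 ± 8.18 to 13.2 ± 1.35 FPKM. Both fell (log2 changes -2.15 and -1.28, with adjusted p = 0.000265 and 0.0133, limma with BH). SSR2, the most abundant member, had 246 ± 17.6 in F against 193 ± 20.9 FPKM in FSB and was not called (BH-adjusted p = 0.0607 by limma). Of 25 enzymes that hydroxylate, fold and trim collagen 2 rose and 11 fell (2 and 12 after scaling). PCOLCE, which speeds the trimming of procollagen ends, went from 387 ± 78.6 to 90.5 ± 4.6 FPKM, and P4HA3, a prolyl hydroxylase subunit, from 5.62 ± 3.26 to 0.109 ± 0.0407 FPKM. LEPREL1, a prolyl hydroxylase that acts on basement membrane collagen, rose, with 25, 11 and 10.6 FPKM in F and 39, 42.9 and 40.5 FPKM in FSB.

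Of 58 lysosomal and vacuolar ATPase genes 22 fell and 9 rose (27 and 4 after scaling). The higher count was 4 without FSB replicate 2 and 5 without FSB replicate 3. The family's log2 sum relative to the F mean was -0.52, -0.35 and -0.20 in the FSB libraries, nearest to F in replicate 3. IDUA (chromosome 4, 980785 to 998317), which degrades heparan and dermatan sulphate, had 12, 11.1 and 12.4 FPKM in F and 1.15, 0.949 and 2.46 FPKM in FSB. GAA, which degrades glycogen, went from 18.8 ± 0.283 to 5.64 ± 1.62 FPKM, and CD63, a membrane protein of late endosomes and the most abundant member, from 573 ± 70.4 to 324 ± 45.5 FPKM. NPC1, which exports cholesterol from the lysosome, rose, from 5.65 ± 0.492 to 12.3 ± 2.36 FPKM. Of 12 cathepsins and cystatins 6 fell and 0 rose, the same counts after scaling. The peptidase CTSA went from 65.2 ± 8.91 to 23.4 ± 2.97 FPKM and the cysteine protease CTSO from 13.6 ± 0.315 to 5.91 ± 2.32 FPKM.

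Among matrix families the small leucine-rich proteoglycans, elastic fibre genes and matricellular glycoproteins were mostly lower, and others were not. Of 11 small leucine-rich proteoglycans 8 fell and 0 rose (7 and 0 after scaling), and 3 of those that fell passed the filter only through the F libraries. Without F replicate 2 or 3, 5 fell, and without any 1 of the FSB libraries 4 did. PODN† and LUM†, members that bind collagen, went from 5.49 ± 2.48 to 0.276 ± 0.0192 FPKM and from 370.5 ± 142 to 136 ± 38.4 FPKM. Of 24 elastic fibre genes 15 fell and 2 rose (16 and 2 after scaling). All 4 LTBP genes, which encode proteins that hold latent TGF-β on microfibrils, fell. LTBP2 (chromosome 14, 74964886 to 75079034) had 58.3, 69.6 and 32.6 FPKM in F and 0.395, 0.335 and 0.257 FPKM in FSB. LTBP1†, LTBP3† and LTBP4† had log2 changes of -2.43, -3.28 and -2.79 (limma, BH-adjusted p = 0.00151, 4.7e-05 and 1.92e-05). FBN2†, a fibrillin of developing tissue, had 117 ± 17.1 in F against 103 ± 18.1 FPKM in FSB and was not called (BH-adjusted p = 0.597 by limma). EMILIN2, a glycoprotein of elastic fibres, rose, with 0.314, 0.289 and 0.543 FPKM in F and 7.36, 7.56 and 7.8 FPKM in FSB, and passed the filter only through the FSB libraries. The other that rose was FBLN7†. Without FSB replicate 1 or 2 no elastic fibre gene was called higher, and without FSB replicate 3, 1 was.

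Of 21 matricellular glycoproteins, secreted proteins that tune how cells hold to the matrix, 14 fell and 1 rose (14 and 1 after scaling). The lower count was 9 without any 1 of the FSB libraries. The member that rose was VTN†, vitronectin, which passed the filter only through the FSB libraries, and the higher count was 3 without F replicate 1 and 0 without any 1 of the FSB libraries. Of 15 matrix metalloproteinases and their inhibitors 7 fell and 1 rose, the same counts after scaling. MMP2 (chromosome 16, 55513081 to 55540586), a gelatinase, had 645, 517 and 480.4 FPKM in F and 42, 39.1 and 84.6 FPKM in FSB, and FSB replicate 3 was the highest of the low libraries. Its activator MMP14† and its inhibitor TIMP2† also fell, from 321 ± 20.6 to 131 ± 21.4 FPKM and from 404 ± 26.1 to 158 ± 21.4 FPKM. MMP15†, a membrane-type enzyme, was the member that rose, from 0.473 ± 0.178 to 4.28 ± 0.536 FPKM, and passed the filter only through the FSB libraries, while 1 of those that fell did so only through the F libraries. ADAMTS genes, which encode secreted proteases of matrix proteins and their relatives, gave 4 higher (ADAMTS1†, ADAMTS5†, ADAMTS12† and ADAMTS15†) and 2 lower (ADAMTS10† and ADAMTSL1†) of 14 (3 and 3 after scaling), and summed to 119 ± 22.8 FPKM in F and 176 ± 6.19 in FSB. Of 27 heparan sulphate core proteins and enzymes 7 rose and 3 fell, GLCE†, GPC6† and NDST2† (5 and 5 after scaling), and 2 of those that rose passed the filter only through the FSB libraries. Their higher count was 3 without F replicate 2, FSB replicate 1 or FSB replicate 3 and 2 without FSB replicate 2, and their lower count was 1 without any 1 FSB library, 5 without F_FSB replicate 1 and 8 without F_FSB replicate 3. The shares lower, 14.3% and 11.1%, lay near the 13.4% of all genes.

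Basement membrane genes separated by chain. Of 18 tested 7 rose and 5 fell, the same counts after scaling. These shares, 38.9% and 27.8%, compare with 28.5% higher and 13.4% lower of all genes. LAMA1 (chromosome 18, 6941743 to 7117813), the laminin chain of early embryonic basement membranes, had 0.247, 0.0759 and 0.321 FPKM in F and 21.7, 19 and 38.5 FPKM in FSB. It passed the filter only through the FSB libraries, and FSB replicate 3 was the highest. LAMA2, the chain of muscle and peripheral nerve, fell by 2.4 on the log2 scale, with 7.96, 2.19 and 5.87 FPKM in F and 0.0835, 0.126 and 0.103 FPKM in FSB. LAMC1†, a chain shared by many laminins, had 215 ± 9.78 in F against 204 ± 17.6 FPKM in FSB and was not called (BH-adjusted p = 0.748 by limma). NID2, a linker of laminin and collagen, rose by 1.97, from 24.8 ± 7.88 to 100.1 ± 35.9 FPKM.

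Integrins, the receptors for these proteins, divided in a similar count, 7 higher and 4 lower (ITGA5†, ITGA7, ITGA10† and ITGB5) of 18 (6 and 4 after scaling, and 4 higher without FSB replicate 1 or 2). The shares of integrins were 38.9% higher and 22.2% lower, against 28.5% and 13.4% of all genes. Among them 3 of those that rose passed the filter only through the FSB libraries and 1 of those that fell only through the F libraries. ITGA1 (chromosome 5, 52084136 to 52249485), a receptor chain for collagen, had 7.05, 2.97 and 3.85 FPKM in F and 77.2, 90.2 and 137 FPKM in FSB, and ITGA8, which pairs with ITGB1 to bind nephronectin and fibronectin, 14.6, 2.07 and 3.59 FPKM in F and 103, 111 and 68.8 FPKM in FSB. ITGA6†, a laminin receptor chain, went from 2.05 ± 1.38 to 17.9 ± 0.691 FPKM. ITGA7, another laminin receptor chain, fell by 1.73, from 5.45 ± 3.22 to 0.81 ± 0.319 FPKM, and ITGB5, which binds vitronectin, by 1.15. The shared partner ITGB1 had 439 ± 62.9 in F against 493 ± 50.1 FPKM in FSB and was not called (BH-adjusted p = 0.576 by limma).

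**Figure D4:**
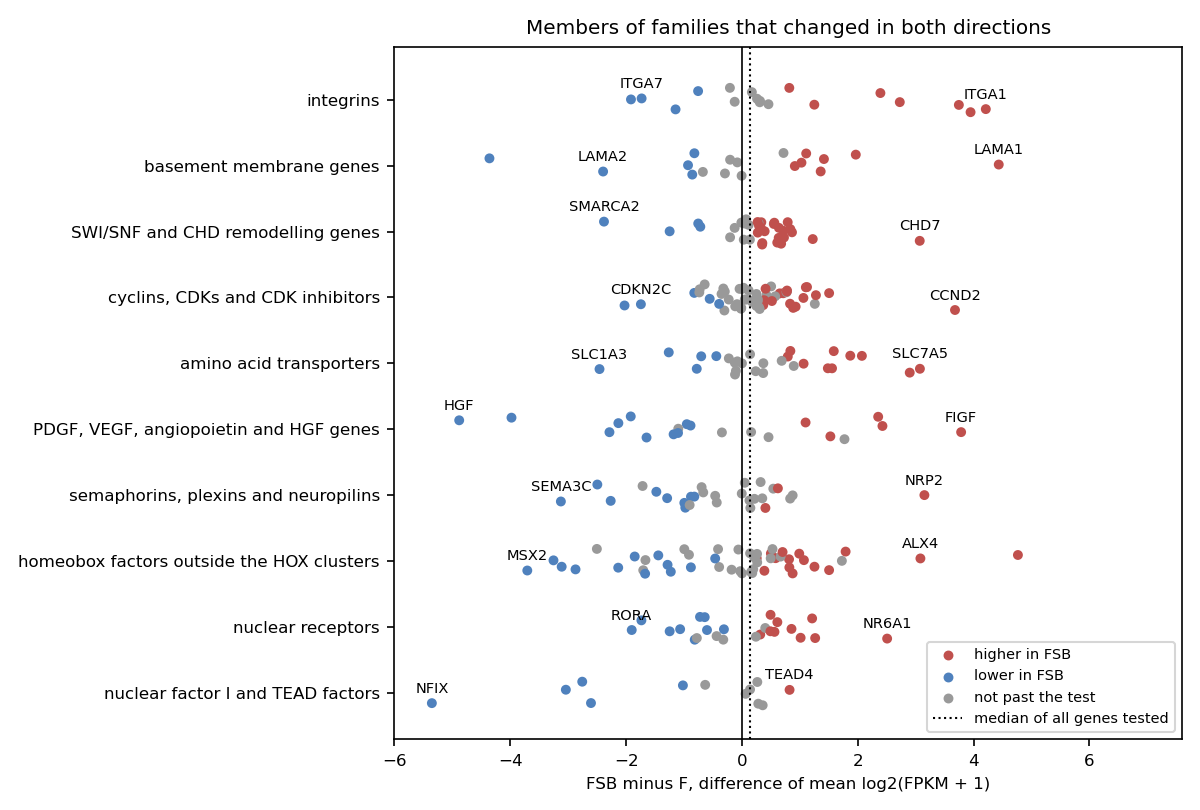
Each point is 1 tested gene of a family, placed by its FSB minus F difference of mean log2(FPKM + 1), in red where called higher, blue where called lower and grey where not past the test, and the dotted line marks the median of all genes at 0.14. Each family holds genes called in both directions, such as LAMA1 at 4.44 and LAMA2 at -2.4.

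Interferon-stimulated genes were lower in FSB. Interferons switch on genes that hinder viruses, and many cells keep a low level of these genes without infection. Of 45 tested 25 fell and 1 rose (26 and 0 after scaling), a share lower of 55.6% against 13.4% of all genes. The log2 sum relative to the F mean was -0.99, -0.88 and -0.56 in the FSB libraries, and replicate 3 lay nearest to F. Of those that fell 1 passed the filter only through the F libraries. The higher call, HERC5†, passed only through the FSB libraries and was lost on leaving out F replicate 1, F replicate 2, FSB replicate 1, FSB replicate 3 or F_FSB replicate 1. IFI44 (chromosome 1, 79115477 to 79129763) was at 12.1, 5.22 and 11.7 FPKM in F and 0, 0 and 0 FPKM in FSB. It is listed at 0 in every FSB library, and its call rests on the F libraries (limma, BH-adjusted p = 0.000265). PSMB8, a subunit of the immunoproteasome, went from 13.7 ± 3.76 to 2.3 ± 2.48 FPKM, and FSB replicate 3 at 5.17 FPKM was the highest of its group. STAT2† and IRF9†, which carry the interferon signal to the nucleus, fell, with log2 changes of -0.58 and -0.92 (limma, BH-adjusted p = 0.00473 and 0.000259). BST2†, which tethers viruses to the cell, had 10.6, 11.2 and 7.62 FPKM in F and 1.98, 2.12 and 3.11 FPKM in FSB. IFITM3, the most abundant member, had 626 ± 72.2 in F against 365 ± 58.1 FPKM in FSB, and its lower call was lost without F replicate 2, FSB replicate 1 or FSB replicate 2 (limma, BH-adjusted p up to 0.0619). IFITM genes are near-identical copies, so that value is uncertain.

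The interferon response motif, TTTC, then 2 bases of any kind, then TTTC again, was added after values were seen. It stood on either strand in 58.3% of the family's 36 promoters and in 3.65% of all promoters in the table, untested genes included. The 250 bases before the start of IFI44 and BST2, both named above, are shown 5′ to 3′ on the gene's strand with matches in capitals, from RefSeq on GRCh38.p14.
IFI44, plus strand, chr1:78649539-78649788: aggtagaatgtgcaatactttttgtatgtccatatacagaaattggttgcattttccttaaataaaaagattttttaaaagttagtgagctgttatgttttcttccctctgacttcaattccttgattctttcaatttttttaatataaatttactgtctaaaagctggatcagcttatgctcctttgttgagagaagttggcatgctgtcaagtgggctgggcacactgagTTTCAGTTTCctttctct
BST2, minus strand, chr19:17405631-17405880: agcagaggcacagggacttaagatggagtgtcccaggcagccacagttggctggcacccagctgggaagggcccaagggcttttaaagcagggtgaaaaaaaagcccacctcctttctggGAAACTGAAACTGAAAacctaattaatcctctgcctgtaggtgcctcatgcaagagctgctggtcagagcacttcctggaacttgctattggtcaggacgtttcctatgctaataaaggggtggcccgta
IFI44 held 1 match and BST2 held 2 that overlap.

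Complement, a cascade of proteases that marks cells for clearance, was also lower. Of 17 genes tested 11 fell and 1 rose, the same counts after scaling, and 4 of those that fell passed the filter only through the F libraries. The lower count was 5 and 6 on leaving out F replicates 2 and 3, and 4, 3 and 7 on leaving out FSB replicates 1, 2 and 3. The log2 sum relative to the F mean was -1.33, -1.22 and -0.64 in the FSB libraries, and replicate 3 lay nearest to F. C1S (chromosome 12, 7167980 to 7178336), a protease of the classical pathway, had 7.88, 16.9 and 15.1 FPKM in F and 0.646, 0.837 and 0.752 FPKM in FSB. CD59†, which blocks the final pore, went from 36.6 ± 3.52 to 13.4 ± 2.03 FPKM. MASP1, a protease of the lectin pathway, was the member that rose, with 0.094, 0.0511 and 0.0368 FPKM in F and 28.4, 29.6 and 65.1 FPKM in FSB, and passed the filter only through the FSB libraries. It was highest in FSB replicate 3. Of 23 antigen presentation genes 7 fell and 2 rose (11 and 2 after scaling), and the higher calls, HLA-DPA1† and HLA-DPB1†, passed the filter only through the FSB libraries and were absent without any 1 of the FSB libraries. TAP1†, a chain of the peptide pump, went from 3.49 ± 0.694 to 0.89 ± 0.436 FPKM. HLA-B had 42.9 ± 13.9 in F against 13.3 ± 3.8 FPKM in FSB, its lower call was lost without F replicate 1 or 2 or FSB replicate 3 (limma, BH-adjusted p up to 0.0587), and HLA genes share reads.

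Of 22 interleukins and receptors 10 fell and 2 rose, the same counts after scaling, and 4 rose without F_FSB replicate 3, and 1 of those that rose passed the filter only through the FSB libraries. IL1R1, the interleukin-1 receptor, went from 11.6 ± 4.16 to 1.31 ± 0.131 FPKM. IL6ST, the signalling chain that the interleukin-6 family shares, had 42.3, 68.9 and 44.1 FPKM in F and 18.3, 20.2 and 20.8 FPKM in FSB. LIF†, a ligand of that chain, went from 3.78 ± 1.66 to 0.422 ± 0.129 FPKM.

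Genes for adhesion and for the guidance of cells and axons were lower more often than higher. Of 30 immunoglobulin adhesion molecules 13 fell and 5 rose (12 and 5 after scaling, and 8 lower without F replicate 2), and 1 of those that fell passed the filter only through the F libraries and 1 of those that rose only through the FSB libraries. NTM, a neural adhesion molecule, had 64.7, 15.6 and 15.5 FPKM in F and 0.349, 0.369 and 0.386 FPKM in FSB. ISLR, a marker of mesenchymal progenitors, was uneven in F, with 12, 139.9 and 93.4 FPKM in F and 0.115, 0.024 and 0.294 FPKM in FSB, and lower in all FSB libraries. L1CAM (chromosome X, 153126971 to 153141399), which promotes the growth and migration of neural cells, rose, with 10.3, 13.9 and 1.44 FPKM in F and 97.4, 96.2 and 87.5 FPKM in FSB. Of 28 semaphorins, plexins and neuropilins 9 fell and 3 rose (10 and 1 after scaling, and 1 higher without FSB replicate 1), and 2 of those that fell passed the filter only through the F libraries and 1 of those that rose only through the FSB libraries. SEMA3C, a secreted guidance cue, went from 28.2 ± 16.3 to 2.04 ± 0.296 FPKM. NRP2, a neuropilin receptor for such cues, rose by 3.15, from 11.3 ± 6.2 to 102 ± 25.8 FPKM, while NRP1 had 67 ± 23.2 in F against 82.4 ± 5.93 FPKM in FSB and was not called (BH-adjusted p = 0.254 by limma).

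Of 18 ephrins and Eph receptors 8 fell and 2 rose (10 and 2 after scaling), with 4 higher without F replicate 1, and 1 of those that fell passed the filter only through the F libraries and 1 of those that rose only through the FSB libraries. The receptors EPHA7 and EPHB3 went from 12.9 ± 9.02 to 1.07 ± 0.515 FPKM and from 38.4 ± 16.4 to 9.53 ± 0.52 FPKM, and EPHB6†, which lacks kinase activity, rose from 1.07 ± 0.67 to 4.41 ± 0.28 FPKM. Of 19 Slit, Robo, netrin and related genes 7 fell and 1 rose (8 and 1 after scaling), and 1 of those that fell passed the filter only through the F libraries. NTN4 and NTNG1, members of the netrin family, fell, with log2 changes of -3.52 and -2.72 (adjusted p = 0.00488 and 0.000359, limma with BH). The single higher member was FLRT3, which binds Unc5 receptors. It went from 6.3 ± 2.79 to 23.1 ± 2.3 FPKM, and its call was lost without F replicate 2, FSB replicate 1 or FSB replicate 2 (limma, BH-adjusted p up to 0.0579). The higher count was 2 without F_FSB replicate 2 or 3.

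Growth factor genes moved in both directions, and more fell than rose. Of 20 PDGF, VEGF, angiopoietin and HGF genes 10 fell and 5 rose, the same counts after scaling. The share lower was 50% against 13.4% of all genes, and the share higher, 25%, was below the 28.5% of all genes. Of those that rose 3 passed the filter only through the FSB libraries, and 1 was called without any 1 FSB library. HGF (chromosome 7, 81331444 to 81399452), hepatocyte growth factor, had 55.7, 112 and 75.9 FPKM in F and 2.34, 2.3 and 0.745 FPKM in FSB. MET†, its receptor, fell as well, from 7.31 ± 5.99 to 0.458 ± 0.158 FPKM. PDGFRL, a soluble relative of the PDGF receptors, fell by 3.98 and VEGFA†, which drives vessel growth, by 1.1. FIGF, which encodes VEGF-D, rose, with 2.11e-06, 1.55e-09 and 9.98e-09 FPKM in F and 12.3, 11.2 and 15.2 FPKM in FSB. PDGFB, a PDGF chain, rose from 0.13 ± 0.0434 to 5.12 ± 0.96 FPKM and passed the filter only through the FSB libraries, and its receptor PDGFRB had 82.5 ± 20.9 in F against 91.1 ± 13.6 FPKM in FSB and was not called (BH-adjusted p = 0.587 by limma). The related receptor PDGFRA† fell, from 118 ± 38.6 to 50.1 ± 4.74 FPKM.

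**Figure D5:**
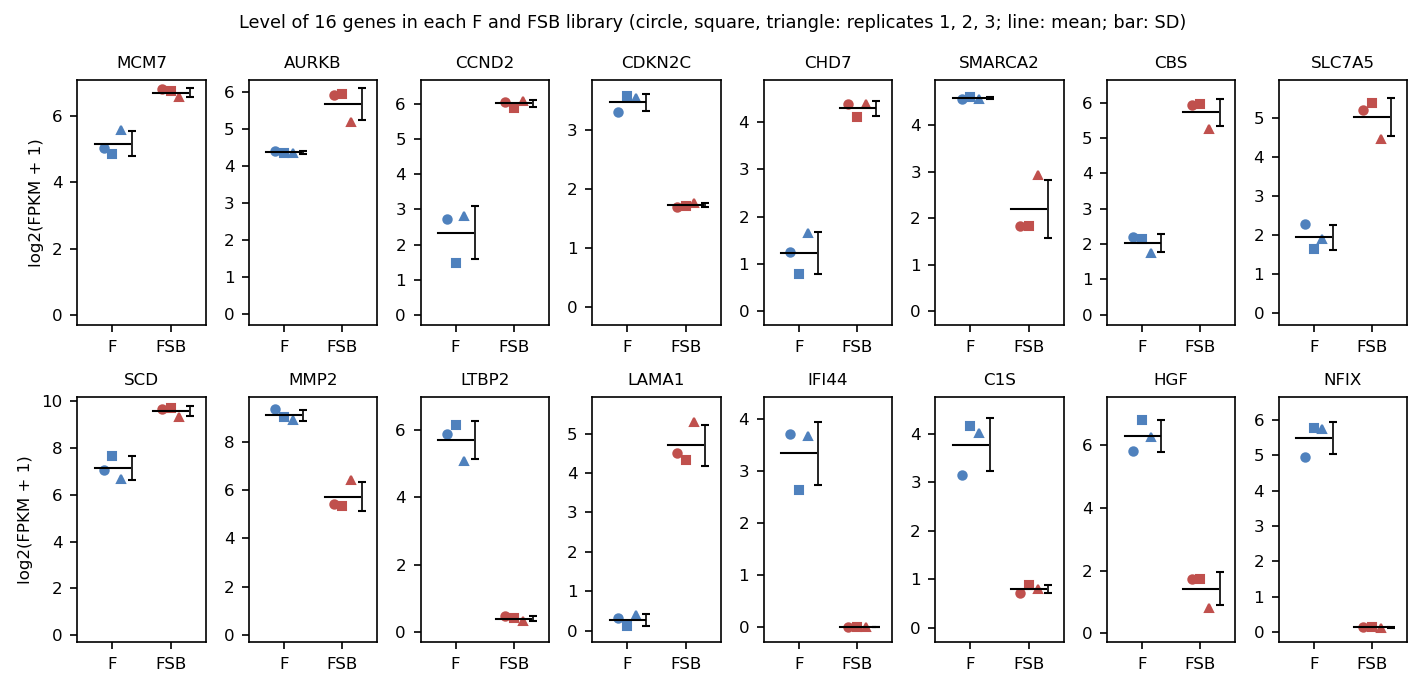
Points give log2(FPKM + 1) of 16 genes in each of the 3 F (blue) and 3 FSB (red) libraries, with the mean as a line and the SD as a bar (n = 3). The groups do not overlap for any of the 16, and FSB replicate 3 (triangle) is the lowest FSB library for AURKB, CBS, SLC7A5 and SCD and the highest for SMARCA2, MMP2 and LAMA1.

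Of 20 WNT ligands, R-spondins and Frizzled receptors 7 fell and 2 rose (8 and 2 after scaling), and 1 of those that fell passed the filter only through the F libraries and 1 of those that rose only through the FSB libraries. Without F replicate 2 or any 1 FSB library 4 fell, and without any 1 of the FSB libraries 1 rose. RSPO3, which amplifies WNT signals, went from 20.7 ± 11.9 to 1.75 ± 0.266 FPKM. The receptors FZD4, FZD8† and FZD1† fell, with log2 changes of -2.46, -2.29 and -1.81 (limma, BH-adjusted p = 0.00056, 0.000977 and 0.00117), while FZD3† rose by 0.96. In the TGF-β superfamily, the system that SB431542 acts on, 14 of 45 genes fell and 8 rose (15 and 3 after scaling). These shares, 31.1% lower and 17.8% higher, compare with 13.4% and 28.5% of all genes. Of the superfamily genes that fell 1 passed the filter only through the F libraries, and 1 of those that rose only through the FSB libraries. The higher count was 3 without FSB replicate 1 or 2 and 5 without FSB replicate 3. BMPER, a secreted BMP modulator, went from 6.63 ± 4.38 to 0.0657 ± 0.0385 FPKM, and the ligand TGFB3† from 19.9 ± 3.75 to 2.29 ± 0.815 FPKM. The type II receptor ACVR2B rose, from 1.49 ± 0.253 to 10.3 ± 0.906 FPKM, and the ligand BMP7 had 0.0142, 0 and 0 FPKM in F and 6.17, 5.39 and 6.75 FPKM in FSB, passing the filter only through the FSB libraries.

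Feedback regulators of receptor signalling separated by kind. Of 17 dual-specificity phosphatases, which switch off MAP kinases, 10 rose and 1 fell (7 and 1 after scaling). Of the higher ones 4 passed the filter only through the FSB libraries, and 6 were higher without FSB replicate 1 or 2. The lower call, DUSP18†, was lost without F replicate 1 or 3, any FSB library or F_FSB replicate 1. DUSP9 had 0.0249, 0.066 and 0.0633 FPKM in F and 7.03, 6.64 and 5.58 FPKM in FSB, and DUSP1†, an early response phosphatase, went from 5.14 ± 1.87 to 16.8 ± 1.12 FPKM. DUSP6, the phosphatase best known as a target of FGF signalling, had 19.1, 18.9 and 86 FPKM in F and 48.2, 48 and 29.8 FPKM in FSB. F replicate 3 was the highest of all 6 libraries and the groups overlapped (limma, BH-adjusted p = 0.645). Of 12 RGS genes, which end G-protein signals, 5 fell and 2 rose, the same counts after scaling (3 lower without FSB replicate 1). RGS2 had 68.6, 91.2 and 158 FPKM in F and 7.29, 8.64 and 6.15 FPKM in FSB, and RGS4 17.6, 8.02 and 65.5 FPKM in F and 0.833, 1.06 and 0.426 FPKM in FSB. For both, every F library exceeded every FSB library, and F replicate 3 was the highest.

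Among transcription factors the NFI family fell as a whole. The NFI proteins are transcription factors of many differentiating tissues, and TEAD proteins carry the signal of YAP1. Of 12 NFI and TEAD genes and partners of TEAD 5 fell, among them WWTR1†, a relative of YAP1, and 1 rose (6 and 1 after scaling). All 4 NFI genes fell. NFIX (chromosome 19, 13106584 to 13209610) had 30.1, 53.4 and 52.4 FPKM in F and 0.102, 0.102 and 0.0869 FPKM in FSB. No FSB library came near the F libraries. It fell by 5.35 (SE 0.42, limma, BH-adjusted p = 0.00014). NFIB went from 18.4 ± 6.9 to 1.26 ± 0.267 FPKM, and NFIA† and NFIC† from 13.2 ± 4.31 to 1.05 ± 0.194 FPKM and from 21.7 ± 6.78 to 2.6 ± 0.145 FPKM. TEAD4 was the member called higher, from 8.97 ± 3.05 to 16.1 ± 1.35 FPKM, but the call was lost with scaling to the same sum and without FSB replicate 2 (limma, BH-adjusted p = 0.0652), and 2 members were higher without F replicate 3. YAP1 had 52.4 ± 6.52 in F against 63 ± 4.25 FPKM in FSB and was not called (BH-adjusted p = 0.086 by limma).

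Of 50 homeobox factors outside the HOX clusters 15 rose and 12 fell, and after each of the 3 scalings 12 rose and 12 fell. The share higher, 30%, was close to the 28.5% of all genes, and the share lower was 24% against 13.4%. Of those that fell 4 passed the filter only through the F libraries, and 1 of those that rose only through the FSB libraries. ALX4 (chromosome 11, 44282278 to 44331716), a factor of the face and skull, had 0.165, 0.164 and 0.384 FPKM in F and 19.3, 16.8 and 2.15 FPKM in FSB and a log2 change of 3.08 (SE 0.69, limma, BH-adjusted p = 0.00935). FSB replicate 3 was low among the FSB libraries. Its relative ALX1† had 2.34, 1.23 and 3.24 FPKM in F and 7.46, 7.45 and 17.3 FPKM in FSB, high in FSB replicate 3. MSX2, a BMP-responsive factor of the skull and teeth, fell, with 45.2, 43.2 and 64.2 FPKM in F and 5.73, 5.42 and 0.384 FPKM in FSB, and was lowest in the same library.

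Nuclear receptors, transcription factors that respond to hormones and lipids, held nearly as many genes that fell as rose. Of 24 tested 10 rose and 9 fell. These shares, 41.7% higher and 37.5% lower, compare with 28.5% and 13.4% of all genes, so the lower share stood further above all genes. After scaling 5 rose and 9 fell, so that the larger side changed with this and with both other scalings. Of those that rose 2 passed the filter only through the FSB libraries. Without FSB replicate 2, 6 rose. RARA, a retinoic acid receptor, had 20.2, 22.8 and 22.1 FPKM in F and 7.94, 8.36 and 9.43 FPKM in FSB, with little spread in either group, and fell by 1.25 (limma, BH-adjusted p = 7.91e-05). RORA, a receptor tied to the circadian clock, went from 5.67 ± 2.85 to 0.699 ± 0.234 FPKM. NR6A1, the germ cell nuclear factor of early embryos, rose, with 0.0967, 0.0852 and 0 FPKM in F and 5.7, 3.89 and 5.69 FPKM in FSB, and passed the filter only through the FSB libraries. NR2F2, the most abundant member, fell by 0.72, from 106 ± 5.36 to 64.2 ± 10.6 FPKM.

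Of 34 voltage-gated and potassium channel genes 14 fell and 5 rose (15 and 5 after scaling). All 5 that rose, CACNA2D2†, KCNA6†, KCNB2†, KCNC4† and KCNK3†, passed the filter only through the FSB libraries, and 1, 0 and 1 were called without FSB replicates 1, 2 and 3, while 3 of those that fell passed only through the F libraries. KCNMA1, a potassium channel opened by calcium and voltage, had 61.3, 27.9 and 42.9 FPKM in F and 5.82, 6.53 and 4.46 FPKM in FSB. CACNA2D1†, a calcium channel subunit, went from 15.4 ± 1.1 to 4 ± 0.0864 FPKM.

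Markers of the cell types that such cultures could hold were read in the same fit. Of 15 neural crest and ectomesenchyme markers 4 rose (TFAP2A, ETS1, TWIST1 and NGFR) and 3 fell (MSX2, DLX1 and PDGFRA), while SNAI2 (63.1 ± 9.13 in F against 68.6 ± 2.58 FPKM in FSB) and PRRX1 (161 ± 21.8 in F against 177 ± 6.38 FPKM in FSB) were not called (BH-adjusted p = 0.427 and 0.509 by limma). The 2 crest markers too low to be tested, SOX10 and FOXD3, had group means up to 0.612 FPKM. NGFR, which encodes the sort marker CD271, was not called without any 1 of the FSB libraries. Of 16 neuron markers 6 were tested and none passed (limma). TUBB3 had 97.7, 65.9 and 53.2 FPKM in F and 117, 135 and 82.4 FPKM in FSB and was not called (BH-adjusted p = 0.0735 by limma), and the neuron markers summed to 88.2 ± 21.4 FPKM in F and 134 ± 23.6 in FSB. Of 13 glial and melanocyte markers 4 were tested and 2 were called higher, PMEL among them and 1 only through the FSB libraries, but 0 when F replicate 2, F replicate 3 or any 1 FSB library was left out, and the list summed to 11.5 ± 5.43 and 16.7 ± 2.32 FPKM. No neuroepithelial marker was tested (9 listed, sums 0.828 ± 0.108 and 0.607 ± 0.346 FPKM).

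Of 12 pluripotent cell markers 7 were tested and 5 rose (4 after scaling, and 3 without FSB replicate 2 or 3), with sums of 12.2 ± 6.88 FPKM in F and 181 ± 4.65 in FSB, and 2 of those that rose passed the filter only through the FSB libraries. The 5 that were not tested, the core factors among them, had group means up to 0.169 FPKM. Of 10 epithelial markers 3 were tested and KRT8 was called higher, from 30.9 ± 20.1 to 94.2 ± 28 FPKM, a call lost after scaling by median ratios and on leaving out F replicate 2, F replicate 3, FSB replicate 1 or FSB replicate 2 (limma, BH-adjusted p up to 0.104). That list summed to 78.1 ± 45.8 and 168 ± 54 FPKM. Of 10 endothelial markers 2 rose, CDH5 (0.143 ± 0.0822 in F against 3.42 ± 0.451 FPKM in FSB) and TIE1, both through the FSB libraries only, and EMCN fell, with sums of 7.89 ± 2.63 and 11 ± 3.88 FPKM. The haematopoietic markers CD34 and RUNX1, which stromal cells also express, fell by 2.54 and fell by 2.47, and the 8 others were not tested and had group means up to 0.123 FPKM. Of 11 mesoderm and muscle markers 2 were tested and none passed (limma), with sums of 24 ± 20.9 and 8.13 ± 3.06 FPKM. The part of these cell types in the changes of the families above was not tested.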

How the data were processed

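RNA of 9 cultures was sequenced from libraries made with a strand-specific SureSelect kit, per the labels' protocols. The authors deposited 1 Cufflinks table per library, and its FPKM column, fragments normalised to transcript length and to all mapped fragments, was used. TopHat2 2.0.12, Cufflinks 2.1.1 and GRCh37 are named in the submitters' processing notes, and the sources used here do not say if counting used strand, so overlapping and antisense genes may share reads. Cufflinks divides fragments among near-identical copies by estimate. FPKM keep no depth, so no count test was run and precision rests on the 3 cultures of each group.

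Loci were joined by name and position. A locus was tested with FPKM of at least 1 in at least 3 of 9 libraries and an OK status in all, and symbols on more than 1 row were left out of families. Values were taken as log2(FPKM + 1) and fitted with limma 3.58.1 in R 4.3.3, as group means of all 9 libraries with a mean-variance trend. The contrast was FSB minus F, two-sided, with Benjamini-Hochberg adjustment over 13216 genes. The families and genes were chosen with earlier results of these data known. Some symbols caught by a family's name pattern were removed by identity after values were seen. For each family the rule named up to 2 called genes with the largest increase and up to 2 with the largest decrease, with groups that do not overlap and a mean of at least 5 FPKM in the higher group, and the member with the highest mean. The text uses some of these. The script was tested on simulated data. Alternatives were pseudocounts, filters, scalings, the libraries in the fit, the trend, a replicate block and leaving out each library. Promoters came from RefSeq tables.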

Additional observations from a re-analysis of the deposited data

How the results depend on the processing

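Of the counts over all genes, 3763 higher and 1773 lower, the number higher was 2424 after scaling by median ratios and 2303 after scaling to the same sum, and the cause was not tested. Leaving out 1 library at a time gave 2415 to 3969 higher and 1172 to 1811 lower, the lowest without FSB replicate 2 and FSB replicate 1. Pseudocount 0.1, no filter, a filter of 5 FPKM, quantile normalization, the fit of the 6 libraries alone and the fit without a trend moved neither count by over 1.5 times. F and FSB libraries of equal replicate number shared little deviation from their group means (correlations 0.067, 0.017 and -0.051). These values cannot tell whether the cultures were paired. With the replicate block 3261 genes were higher and 1581 lower. Among the 150 called genes given with values, none reversed under these settings, 6 lost the call without some library, and 2, TEAD4 and KRT8, under a scaling. The counts of members called higher and lower per family moved by over 1.5 times in 357 combinations of count and setting, most of them with counts under 5, and by less in 1947. FPKM give no fragment counts, so the depth behind low values is unknown, and with 3 cultures of 1 line per group the spread covers cultures and not lines.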

Other observations

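Families outside the comparisons above also differed between FSB and F. Of 37 genes of the tricarboxylic acid cycle and of pyruvate entry 19 rose and 3 fell, but 7 and 4 after scaling by median ratios. The share higher after that scaling was close to the 18.3% of all genes. The members that changed most feed carbon into and out of the cycle. ACLY, which splits citrate into acetyl-CoA in the cytosol, had 73.6, 95.5 and 80.6 FPKM in F and 212, 213 and 155 FPKM in FSB. Its FSB libraries all lay above the F libraries, with replicate 3 the lowest. DLAT, a subunit of pyruvate dehydrogenase, went from 8.47 ± 0.695 to 22.1 ± 3.27 FPKM, and IDH1, the cytosolic isocitrate dehydrogenase, from 50.1 ± 9.43 to 117 ± 8.94 FPKM. ME3, a mitochondrial malic enzyme, fell by 1.67 (limma, BH-adjusted p = 0.00667).

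Of 18 prostaglandin and eicosanoid genes 6 fell and 3 rose, the same counts after scaling, and 2 of those that rose passed the filter only through the FSB libraries. PTGS2, cyclooxygenase 2, had 1.19, 0.781 and 4.75 FPKM in F and 13.8, 16 and 7.39 FPKM in FSB. All FSB libraries were above the F libraries. The prostacyclin synthase PTGIS† and the prostaglandin D synthase PTGDS went from 17.3 ± 6.9 to 1.39 ± 0.443 FPKM and from 6.88 ± 1.68 to 0.0241 ± 0.0418 FPKM, and the receptor PTGER4 from 11.6 ± 4.83 to 0.213 ± 0.164 FPKM. The cyclooxygenase gene rose, while the synthases and the receptor fell. Of 43 protocadherins, adhesion molecules that give cells a combinatorial surface identity, 11 fell and 5 rose (13 and 5 after scaling), and 1 of those that fell passed the filter only through the F libraries and 2 of those that rose only through the FSB libraries. The lower count was 7, 6 and 6 without F replicate 1, FSB replicate 1 and FSB replicate 2. The higher count was 3 without FSB replicate 1 or 3. PCDH1 had 0.743, 0.919 and 1.47 FPKM in F and 32.8, 36 and 33 FPKM in FSB, and PCDH9 15.7, 10.2 and 7.47 FPKM in F and 1.23, 1.09 and 1.8 FPKM in FSB. The groups did not overlap for either gene, and they moved in opposite directions. Clustered protocadherins share exons, so reads may have been divided among them.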
